A study of Rattus norvegicus with 71 samples.

Results

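The 24 rats described here were the unexposed controls of a study of maternal autoantibodies, and they came in 2 experimental batches that the methods describe as prepared and sequenced separately. Members were chosen by label: condition Control and no autoantibody, which gave 24 of the 71 libraries in the series. The 12 controls whose titles start with MAR_C3 formed batch 2, and the 12 with any other title formed batch 1. All were wild-type Sprague-Dawley pups taken at postnatal day 2, born to dams injected with adjuvant and saline only, so the contrast holds no exposed animal. Batch 1 comprised 3 litters of 4 pups (dams IgG1, IgG2 and RNA4), each with 2 males and 2 females. Batch 2 comprised 4 litters: 2 pups each from dams 9_5 and 9_15 (1 male and 1 female), 4 females from dam 9_10 and 4 males from dam 9_25. The series asked how maternal antibodies against fetal brain proteins change the neonatal brain transcriptome, and each library was poly(A) RNA from 1 coronal slice, labelled as 150 µm thick and as holding hippocampus with cortical and subcortical structures. The design text of the series instead speaks of frontal cortex and hypothalamus, and the position of each slice is not labelled. The comparison of the 2 control sets is described here by genes known to mark brain regions and tissues.

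Regional genes can serve as a guide to what a slice of newborn forebrain holds. Transthyretin (Ttr) is made in the brain by the choroid plexus, the epithelium that hangs in the ventricles and secretes cerebrospinal fluid. Tcf7l2 encodes a transcription factor of the WNT pathway that is abundant in postmitotic neurons of thalamus and habenula, while Drd1 encodes the dopamine receptor of one class of striatal projection neuron. Striatum, thalamus, hypothalamus and hippocampus take up different shares of a coronal section at different positions along the front-to-back axis of the brain.

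Total counts ranged from 25389628 to 34323510 over the 24 controls (median 28465450), so that 1 CPM, the usual depth-scaled count unit, stood for 25.4 to 34.3 counts. CPM here were also scaled by TMM factors. The Y-linked gene Eif2s3y lay between 68.0 and 89.5 CPM in the 12 labelled males and at no more than 0.0701 CPM in the 12 labelled females. Of 12089 genes with at least 1 CPM in 8 or more controls, 5033 differed between batches at an adjusted p under 0.1 (edgeR quasi-likelihood test with sex as covariate, Benjamini-Hochberg), which was 41.6% of those tested. Of these, 2589 were higher in batch 2 (21.4%) and 2444 were lower (20.2%), and the median log2 fold change over all genes tested was 0.00. At least a 2-fold change was met by 351 higher genes (2.90%) and 84 lower genes (0.695%). Batch, litter, collection, library preparation and sequencing run change together in this contrast and cannot be told apart. Pups of a litter are also not independent: with counts summed over each litter (3 against 4), 1833 genes were called (15.2%), 1832 of them also called over animals, and 379 of the 435 genes called at 2-fold or more were among them. The SE and adjusted p printed below for single genes count pups as replicates. Of 97 called genes under the naming rule, 21 lost the call with counts summed per litter, and these are not marked one by one.

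The 3 markers separated the batches completely. Ttr (rn7 chr18:11943794-11951007, plus strand) ranged from 0.371 to 105 CPM in batch 1 (median 6.08) and from 121 to 2661 CPM in batch 2 (median 662.5). Every batch 2 slice was above every batch 1 slice, and the levels within each batch spread widely (est. log2 fold change = 5.65, SE = 0.85, edgeR adjusted p = 2.7e-05). Tcf7l2 (rn7 chr1:254786091-254978966, plus strand) ranged from 5.29 to 25.0 CPM in batch 1 (median 10.5) and from 131 to 579 CPM in batch 2 (median 471). The ranges lay far apart, and the lowest batch 2 slice, the female of litter 9_5, was still several-fold above batch 1 (est. = 5.22, SE = 0.29, edgeR adjusted p = 1.39e-11). Drd1 (rn7 chr17:10541546-10544971, plus strand) moved the other way, from 17.99 to 60.4 CPM in batch 1 (median 36.2) to 5.73 to 16.9 CPM in batch 2 (median 9.62). It was lower in every batch 2 slice than in any of batch 1 (est. = -1.89, SE = 0.18, edgeR adjusted p = 2.88e-08). Over all tested genes, 0.811% had non-overlapping ranges with batch 2 higher and 0.786% with batch 2 lower. In bulk tissue, fewer cells of a type and less RNA per cell cannot be told apart.

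**Figure D1:**
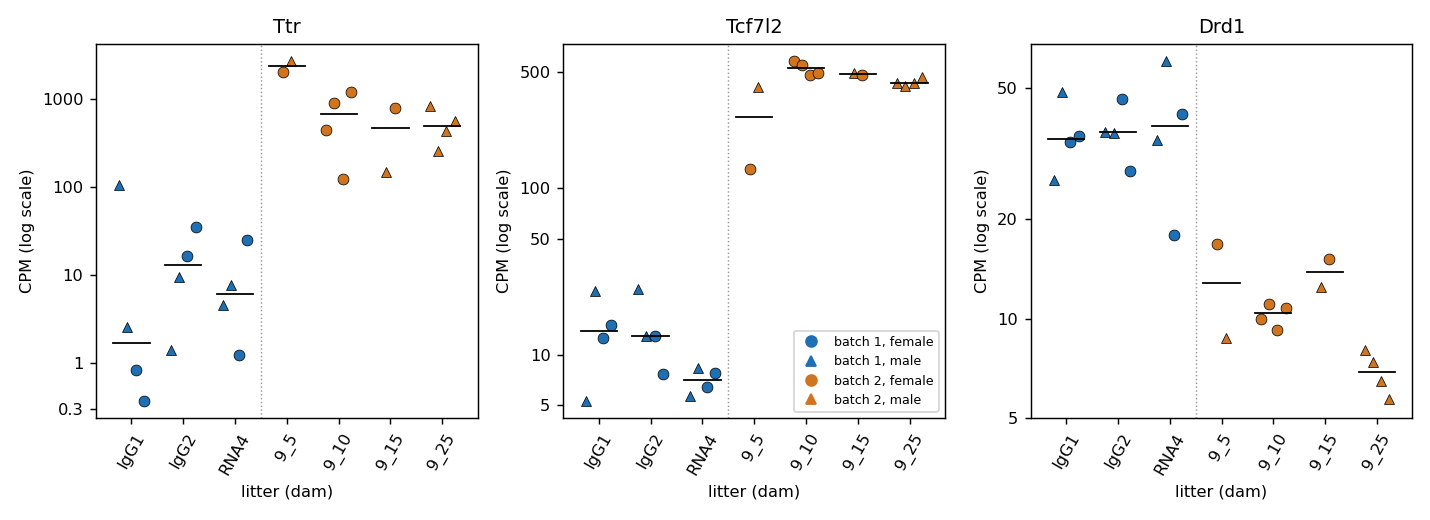
CPM of Ttr, Tcf7l2 and Drd1 (log axes) in each of the 24 controls, grouped by litter, with circles for females, triangles for males and a bar at the litter median. All 12 batch 2 animals lie above all 12 of batch 1 for Ttr and Tcf7l2 and below them for Drd1.

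Thalamic genes were higher in batch 2. Of 14 genes in the list, 13 were in the table and all of these were tested: 11 were higher, 0 were lower and 2 did not pass, with a median log2 fold change of 2.09, against 21.4% higher and a median of 0.00 over all genes. In 6 of the 13 the batches did not overlap. Summed over the list, thalamic genes took 121 to 275 CPM in batch 1 and 476 to 1272 CPM in batch 2. Lhx9, a LIM homeobox factor of caudal thalamus, was at 0.389 to 2.96 CPM in batch 1 (median 1.10) and 13.9 to 33.8 CPM in batch 2 (median 24.8). Each batch 2 slice held several times the highest level of batch 1 (est. = 4.30, SE = 0.26, edgeR adjusted p = 1.7e-11). Gbx2, a homeobox factor needed for thalamic neurons to differentiate, went from 0 to 8.98 CPM (median 2.03) to 10.1 to 23.8 CPM (median 17.95), again without overlap (est. = 2.78, SE = 0.45, edgeR adjusted p = 5.26e-05). Ntng1, encoding netrin-G1 on thalamocortical axons, went from 8.94 to 24.3 CPM (median 11.7) to 31.3 to 98.0 CPM (median 86.0), also without overlap (est. = 2.57, SE = 0.17, edgeR adjusted p = 6.97e-11). The exceptions were Prkcd, a protein kinase C of relay neurons (14.05 to 27.7 CPM against 18.95 to 27.7 CPM, edgeR adjusted p = 0.175), and Ramp3.

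Neighbouring diencephalic and midbrain groups were also higher, from low levels. The habenula lies above the thalamus, and of its 9 listed genes 7 were tested, with 5 higher and 2 lower. Over all genes 21.4% were higher and 20.2% lower, shares that also apply to the hypothalamic counts below. Gpr151, an orphan receptor of habenular neurons, was at 0 to 0.245 CPM in batch 1 (median 0.0677) and at 0.347 to 3.01 CPM in batch 2 (median 2.03), so the ranges did not meet (est. = 4.48, SE = 0.47, edgeR adjusted p = 6.07e-08). Irx1, an Iroquois homeobox gene, likewise stood apart at 0.693 to 6.92 CPM against 7.67 to 26.7 CPM (est. = 2.78, SE = 0.32, edgeR adjusted p = 4.34e-07). Chrna3, a nicotinic receptor subunit, overlapped but was higher (median 2.25 against 6.56 CPM, est. = 1.23, SE = 0.18, edgeR adjusted p = 7.56e-06). The 2 lower members were the tachykinin genes Tac1 and Tac3, and Tac1, which striatal neurons also express, fell from a median of 38.03 to 19.2 CPM (est. = -0.99, SE = 0.17, edgeR adjusted p = 7.48e-05). Of 20 hypothalamic genes, all in the table, 13 were tested: 8 were higher, 1 was lower and 4 did not pass. Otp, a homeobox factor of neuroendocrine hypothalamus, was at 0 to 2.20 CPM in batch 1 (median 0) and at 0.385 to 14.4 CPM in batch 2 (median 9.10), with overlap at the low end (est. = 5.19, SE = 0.79, edgeR adjusted p = 2.22e-05). Oxt, encoding oxytocin, followed with medians of 0.181 and 3.80 CPM (est. = 3.58, SE = 0.87, edgeR adjusted p = 0.00279). Hcrt, encoding orexin, did not exceed 1.91 CPM in any control and was not tested, and Pmch, encoding melanin-concentrating hormone, was listed at 0 in all 24. Cartpt was the member that fell, from a median of 11.7 to 2.97 CPM (est. = -2.03, SE = 0.31, edgeR adjusted p = 2.2e-05). The sum over the hypothalamic list reached down to 14.7 CPM in batch 2 and to 14.1 CPM in batch 1, so single slices of batch 2 held as little of it as batch 1.

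For the list of midbrain and monoamine nuclei, 7 of 18 genes were tested and 7 were higher, against 21.4% higher over all genes. However, 10 of the 17 in the table stayed below the filter. Th, the rate-limiting enzyme of dopamine synthesis, ranged from 0.374 to 5.12 CPM (median 1.48) and from 2.39 to 22.1 CPM (median 3.59), with overlapping ranges (est. = 1.72, SE = 0.40, edgeR adjusted p = 0.00188). Slc6a3, the dopamine transporter that marks midbrain dopamine neurons, stayed at or below 0.408 CPM in 21 of the 24 controls. It reached 18.1 CPM in MAR_C3_43, 7.09 CPM in MAR_C3_42 and 2.04 CPM in MAR_C3_21, which were also the 3 highest for Th. Gata3, a zinc finger factor of midbrain GABA neurons, went from a median of 0 to 1.68 CPM (est. = 4.61, SE = 0.75, edgeR adjusted p = 3.94e-05). Slc6a4, the serotonin transporter, was named after its values were seen: it rose from 1.17 to 3.57 CPM (median 2.25) to 0.878 to 27.6 CPM (median 16.9; est. = 2.82, SE = 0.33, edgeR adjusted p = 5.15e-07). Tph2, the brain enzyme of serotonin synthesis, had medians of 0.686 and 0.601 CPM. Serotonin neurons express Slc6a4, and developing thalamic axons are known to express it without making serotonin. Which cells the Slc6a4 RNA came from was not tested. The filter of 1 CPM in 8 of 24 libraries can be passed by batch 2 alone. Without it, 11 of 13 thalamic, 13 of 17 midbrain, 11 of 19 hypothalamic and 6 of 8 habenular genes were called higher. Of all 15593 genes tested without it, 2900 were called higher.

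**Figure D2:**
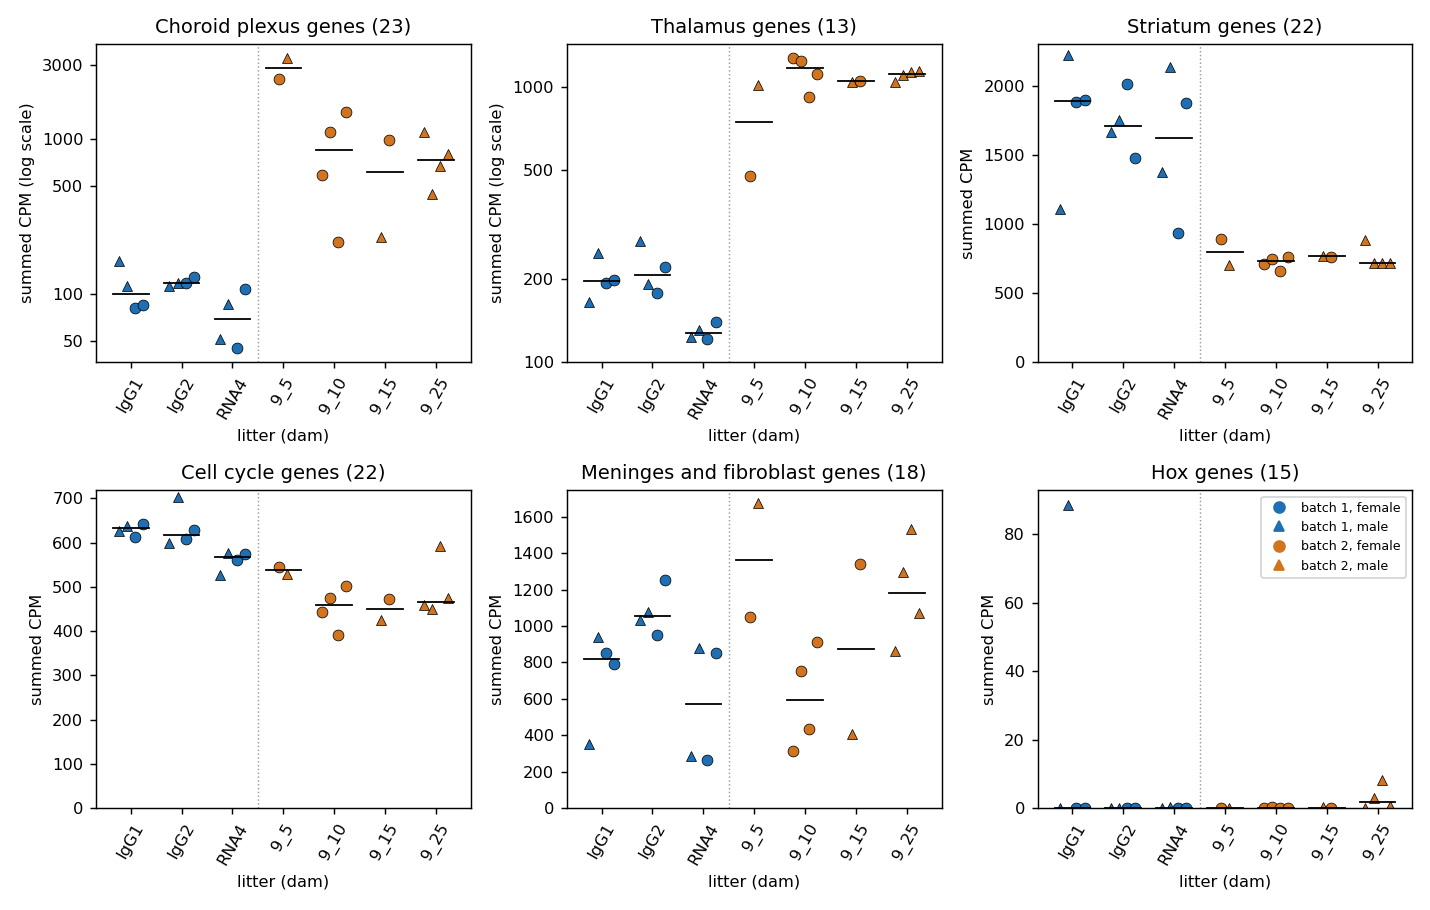
Summed CPM of 6 gene lists in each of the 24 controls, by litter (circles females, triangles males, bars litter medians; choroid plexus and thalamus on log axes, the others from 0). Choroid plexus and thalamus sums are higher and striatum sums lower in every batch 2 animal, while meninges sums overlap and Hox RNA stands out in IgG1_2 alone.

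Choroid plexus genes were also higher in batch 2. All 23 listed genes were in the table and 21 were tested. Of these, 19 were higher, 0 were lower and 2 did not pass, with a median log2 fold change of 2.71. Over all genes 21.4% were higher. Without the filter 21 of 23 were called higher, as were 2900 of all 15593 genes. Their sum took 45.4 to 164 CPM in batch 1 and 217 to 3308 CPM in batch 2, so the ranges were apart while the slices of batch 2 spread widely among themselves. Folr1, the folate receptor that carries folate into cerebrospinal fluid, was at 0.0394 to 1.08 CPM in batch 1 (median 0.376) and 0.540 to 29.8 CPM in batch 2 (median 6.23), where only MAR_C3_21 of batch 2 fell within the batch 1 range (est. = 4.21, SE = 0.56, edgeR adjusted p = 4.33e-06). Kl, encoding klotho, had medians of 0.855 and 6.02 CPM (est. = 3.27, SE = 0.53, edgeR adjusted p = 4.13e-05). Mfrp, a membrane frizzled-related protein, was at 0 to 0.978 CPM against 1.12 to 49.4 CPM, without overlap (est. = 6.76, SE = 0.70, edgeR adjusted p = 1.23e-07). It changed most among the list's called genes. Sostdc1, a secreted BMP and WNT antagonist, and Otx2, a homeobox factor of choroid plexus and diencephalon, also did not overlap: Sostdc1 had medians of 0.941 and 10.3 CPM, and Otx2 of 2.13 and 11.7 CPM. The members that did not pass were Wfdc2 (medians 8.22 and 8.44 CPM) and Slc13a4, a sulfate transporter that meningeal cells also express (medians 11.2 and 19.1 CPM). Sspo, encoding the SCO-spondin of the subcommissural organ at the roof of the diencephalon, went from 0 to 0.649 CPM (median 0.141) to 0.715 to 49.5 CPM (median 14.2), also without overlap (est. = 6.25, SE = 0.58, edgeR adjusted p = 2.4e-08).

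Multiciliated ependyma lines the ventricles, and its genes rose by smaller amounts. Of 27 listed genes 18 were in the table and 17 were tested. Of these, 15 were higher, 0 were lower and 2 did not pass, against 21.4% higher over all genes. The median log2 fold change was 1.08. Foxj1, the master factor of motile cilia, was at 5.06 to 20.7 CPM in batch 1 (median 8.05) and 12.2 to 58.1 CPM in batch 2 (median 27.7). The ranges overlapped, but the batch medians were far apart (est. = 1.62, SE = 0.25, edgeR adjusted p = 2.78e-05). Ccdc153 (est. = 1.84, SE = 0.31), the radial spoke gene Rsph1 (est. = 0.93, SE = 0.17) and the radial spoke gene Rsph4a (est. = 2.14, SE = 0.31) rose as well. The RFX factors that share control of cilia genes with FOXJ1 did not pass: Rfx2 had medians of 3.63 and 4.58 CPM and Rfx3 of 31.5 and 27.4 CPM.

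RFX proteins bind a motif whose half-site reads GTTGCC, and the promoters of cilia genes are shown because, of the 5 lists searched, the ependymal one carried it most often. In 300-base windows (250 before to 50 after the start, RefSeq, GRCr8), GTTGCC or its reverse complement occurred in 12.2% of all 33469 windows. That share counts windows, whereas a listed gene counted once if any of its windows held the half-site. Among ependymal genes 13 had a window and 10 of these held it. The counts were 2 of 15 for choroid plexus, 0 of 10 for thalamus, 3 of 16 for striatum and 1 of 18 for WNT genes. It was present in 7 of the 10 ependymal genes that were higher in batch 2 and in the 3 others. The sequences below run 5′ to 3′ on the gene's strand with the half-site in capitals. Drc1 and Tekt1, a dynein regulatory subunit and a tektin of the axoneme, had medians of 6.09 and 13.3 CPM and of 3.30 and 7.52 CPM in batches 1 and 2, and the sperm flagellar gene Spef2 of 0.743 and 2.11 CPM. These 3 genes and the motif were chosen after the values and promoters were seen, and a match in these letters is a description only.
Drc1 (GRCr8 chr6:31779207-31779506, minus strand): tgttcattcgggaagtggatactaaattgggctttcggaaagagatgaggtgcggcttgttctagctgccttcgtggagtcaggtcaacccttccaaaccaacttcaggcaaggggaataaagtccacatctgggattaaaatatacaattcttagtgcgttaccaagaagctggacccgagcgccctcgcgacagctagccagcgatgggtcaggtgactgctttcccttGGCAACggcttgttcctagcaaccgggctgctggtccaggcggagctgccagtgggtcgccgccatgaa
Tekt1 (GRCr8 chr10:57479072-57479371, minus strand): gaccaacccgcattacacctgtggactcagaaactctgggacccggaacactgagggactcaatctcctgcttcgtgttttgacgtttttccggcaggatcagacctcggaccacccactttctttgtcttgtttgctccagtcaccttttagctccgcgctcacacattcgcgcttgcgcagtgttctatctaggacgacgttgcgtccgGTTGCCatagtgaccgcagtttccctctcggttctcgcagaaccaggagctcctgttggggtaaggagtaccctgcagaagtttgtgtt
Spef2 (GRCr8 chr2:60421801-60422100, minus strand): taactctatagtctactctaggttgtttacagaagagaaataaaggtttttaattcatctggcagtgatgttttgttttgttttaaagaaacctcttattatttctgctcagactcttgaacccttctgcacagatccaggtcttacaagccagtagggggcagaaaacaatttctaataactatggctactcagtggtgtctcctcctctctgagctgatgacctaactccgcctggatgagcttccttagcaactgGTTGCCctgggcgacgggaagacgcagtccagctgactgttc

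**Figure D3:**
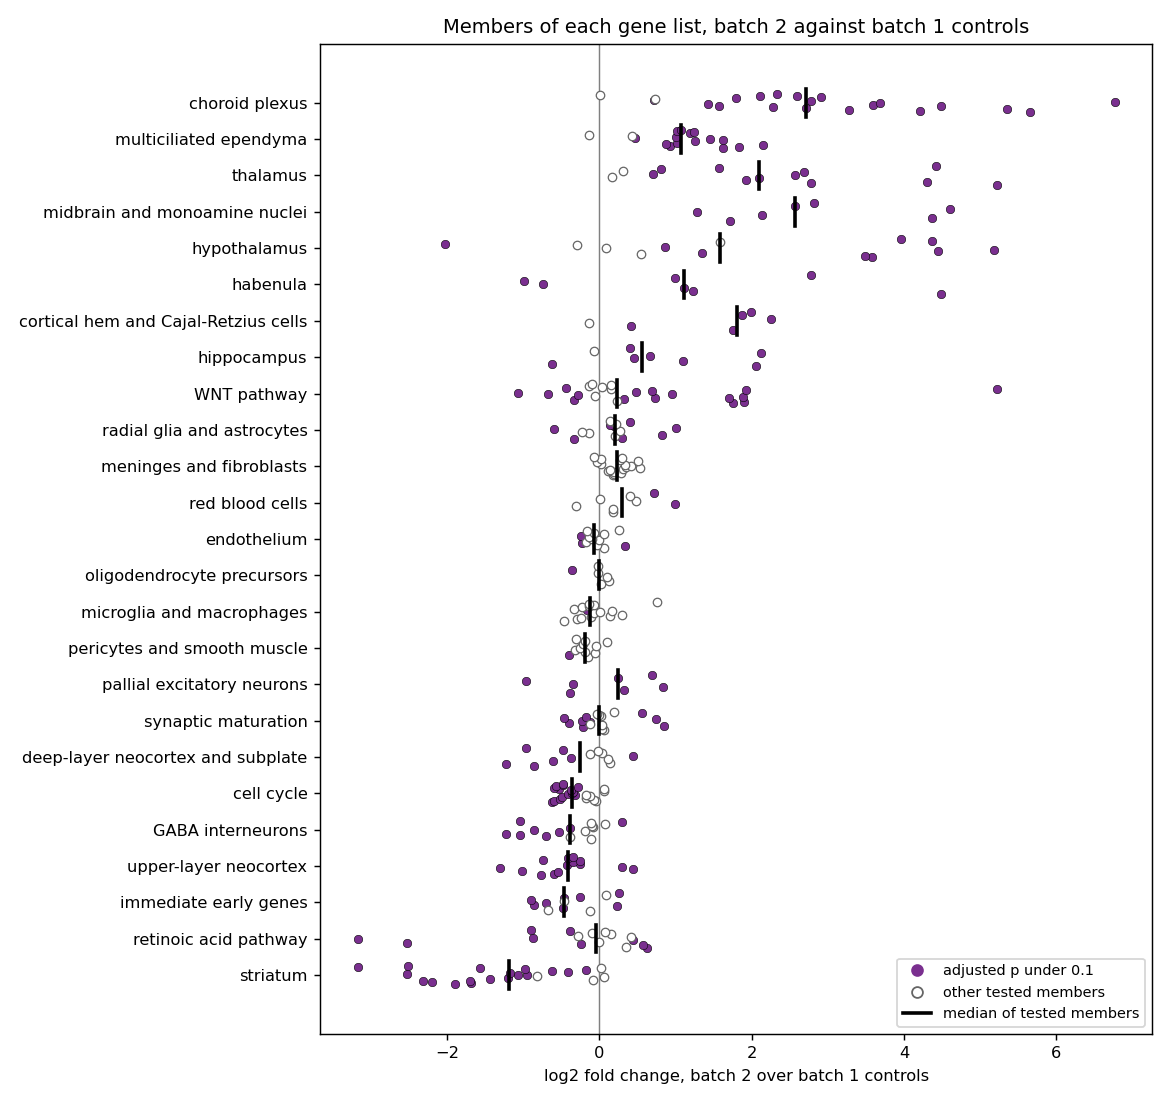
Log2 fold change (batch 2 over batch 1 controls, positive when higher in batch 2) of each tested member of 25 gene lists, filled where the adjusted p was under 0.1, with a black bar at the list median. Choroid plexus, thalamus and midbrain lists lie to the right, striatum to the left, and meningeal, vascular and microglial lists around 0.

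Striatal genes were lower in batch 2. All 22 listed genes were tested: 0 were higher, 18 were lower and 4 did not pass, with a median log2 fold change of -1.18, against 20.2% lower over all genes. Their sum took 931 to 2223 CPM in batch 1 and 659 to 894 CPM in batch 2, so that the ranges did not overlap. Drd2, the dopamine receptor of the other class of projection neuron, was at 14.1 to 45.4 CPM (median 31.9) and 7.20 to 14.6 CPM (median 9.31), with a slight overlap (est. = -1.68, SE = 0.17, edgeR adjusted p = 4.19e-08). Adora2a, the adenosine receptor of the same neurons, had medians of 56.1 and 9.20 CPM (est. = -2.19, SE = 0.33, edgeR adjusted p = 2.49e-05). Rxrg, a retinoid X receptor of striatum, showed the largest change of the list, from 10.6 to 179 CPM (median 103) to 6.51 to 21.8 CPM (median 11.6; est. = -3.17, SE = 0.31, edgeR adjusted p = 6.17e-08). Meis2, a homeobox factor of striatal and olfactory neurons, did not overlap, at 207 to 464 CPM (median 389) against 99.0 to 160 CPM (median 126; est. = -1.56, SE = 0.11, edgeR adjusted p = 6.22e-11). Foxp1, a forkhead factor of striatal neurons, just overlapped, with the lowest batch 1 slice at 68.36 CPM and the highest batch 2 slice at 68.41 CPM (est. = -1.07, SE = 0.09, edgeR adjusted p = 1.1e-09). Rgs9, Six3, Isl1 and Pde1b did not pass. Six3 had medians of 16.8 and 14.9 CPM and Pde1b of 56.0 and 57.2 CPM.

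Of 16 listed interneuron genes, 15 were tested, with 7 lower, 1 higher and 7 not passing, against 20.2% lower and 21.4% higher over all genes. The higher member was Cck, encoding cholecystokinin, with medians of 92.5 and 114 CPM (est. = 0.30, SE = 0.11, edgeR adjusted p = 0.0328). The GABA-synthesising enzymes Gad1 and Gad2 did not pass (medians 173 and 164 CPM for Gad1, 77.1 and 58.9 CPM for Gad2). The Dlx homeobox genes, which newborn neurons of the ganglionic eminences express, were lower: Dlx1 had medians of 128 and 79.7 CPM (est. = -0.70, SE = 0.08, edgeR adjusted p = 6.72e-07) and Dlx5 of 35.1 and 15.1 CPM (est. = -1.23, SE = 0.18, edgeR adjusted p = 1.4e-05).

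Neocortical layer genes were lower by less than striatal ones. In upper layers 14 genes were tested, of which 12 were lower and 2 higher, with a median of -0.41. In deep layers and subplate 12 were tested: 6 were lower, 1 was higher and 5 did not pass, with a median of -0.25. Over all genes 20.2% were lower and 21.4% higher, shares that also apply to the pallial genes below. Cux1, a homeobox factor of upper-layer neurons, was at 138 to 178 CPM in batch 1 (median 167) and 101 to 122 CPM in batch 2 (median 110), without overlap (est. = -0.59, SE = 0.04, edgeR adjusted p = 4.04e-11). Cux2 overlapped, with medians of 161 and 111 CPM. Inhba, an activin subunit, changed most in the upper-layer list (medians 11.7 and 4.74 CPM, est. = -1.30, SE = 0.15, edgeR adjusted p = 1.7e-07). Bcl11b, which encodes CTIP2 in subcerebral projection neurons and also in striatal neurons, fell from 232 to 493 CPM (median 376) to 133 to 180 CPM (median 161), without overlap (est. = -1.22, SE = 0.10, edgeR adjusted p = 1.53e-09). Tbr1, a T-box factor of corticothalamic neurons, fell from a median of 277 to 160 CPM (est. = -0.85, SE = 0.08, edgeR adjusted p = 1.05e-08), while Fezf2, which specifies subcerebral neurons, had medians of 57.1 and 64.7 CPM (edgeR adjusted p = 0.525). Genes of pallial excitatory neurons in general went both ways among 7 tested, with 4 higher and 3 lower. Neurod6, a basic helix-loop-helix factor of these neurons, was lower (medians 325 and 158 CPM, est. = -0.96, SE = 0.13, edgeR adjusted p = 6.21e-06). Neurod1, which granule neurons of the dentate gyrus also express, was higher (medians 20.2 and 45.3 CPM, est. = 0.84, SE = 0.15, edgeR adjusted p = 0.000132).

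The labels name hippocampus, and most hippocampal genes were higher in batch 2. Of 10 listed genes 9 were in the table and 8 were tested: 6 were higher, 1 was lower and 1 did not pass, with a median of 0.56, and the list sum did not overlap (76.0 to 136 CPM in batch 1, 136 to 194 CPM in batch 2, the highest of the first just below the lowest of the second). Prox1, a homeobox factor of dentate granule cells that thalamic neurons express too, was at 6.19 to 14.4 CPM (median 8.73) and 23.01 to 55.7 CPM (median 33.1), without overlap (est. = 2.05, SE = 0.16, edgeR adjusted p = 4.81e-10). C1ql2, a synaptic organiser of dentate mossy fibres, had medians of 1.52 and 6.61 CPM (est. = 2.12, SE = 0.36, edgeR adjusted p = 7.45e-05), and Fibcd1 of 8.11 and 15.1 CPM (est. = 1.11, SE = 0.25, edgeR adjusted p = 0.00148). Zbtb20, a zinc finger factor of hippocampal pyramidal neurons and glia, went the other way (medians 16.7 and 10.3 CPM, est. = -0.63, SE = 0.17, edgeR adjusted p = 0.00657). With counts summed per litter, 3 hippocampal genes were called higher and 0 lower, where 8.83% of all genes were called higher. The cortical hem, the signalling edge of the medial cortex, and its Cajal-Retzius cells gave 5 higher of 6 tested. Among them were Wnt2b (medians 0.899 and 3.85 CPM) and Lhx1 (medians 0.614 and 4.54 CPM). Over all genes 21.4% were higher, a share that also applies to the hippocampal list. The sum over the hem list overlapped, at 269.5 to 378.2 CPM in batch 1 and 225.0 to 467.3 CPM in batch 2. Wnt3a stayed at or below 0.202 CPM everywhere, and Reln, the most characteristic product of Cajal-Retzius cells, did not pass (medians 297 and 280 CPM, edgeR adjusted p = 0.217).

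Genes of the WNT pathway, which runs from secreted ligands through frizzled receptors to TCF and LEF factors, were counted from 26 listed, 25 in the table and 23 tested. There were 11 higher, 5 lower and 7 that did not pass, against 21.4% higher and 20.2% lower over all genes. With counts summed per litter 10 were higher and 4 lower, where 8.83% of all genes were higher and 6.34% lower. The 11 included the thalamic factors Tcf7l2 and Lef1. The 5 lower members were Rspo2 and Rspo3, secreted enhancers of WNT signalling, the antagonist Sfrp1, the ligand Wnt7a and the co-receptor Lrp6. Rspo3 had medians of 7.94 and 4.03 CPM (est. = -1.06, SE = 0.17, edgeR adjusted p = 1.78e-05) and Rspo2 of 11.7 and 7.24 CPM (est. = -0.67, SE = 0.11, edgeR adjusted p = 2.03e-05). Among ligands, Wnt4 went from 2.16 to 7.74 CPM (median 4.55) to 9.17 to 23.03 CPM (median 16.96), without overlap (est. = 1.90, SE = 0.18, edgeR adjusted p = 2.31e-08), and Wnt2b rose as given above. The feedback genes Axin2 and Nkd1, general readouts of the pathway named after their values were seen, had medians of 21.9 and 30.7 CPM (est. = 0.48, SE = 0.09, edgeR adjusted p = 9.42e-05) and of 14.3 and 22.2 CPM (est. = 0.69, SE = 0.11, edgeR adjusted p = 2.53e-05). The Axin2 promoter is shown with the letters CTTTGAT, a TCF and LEF site, in capitals. Either strand of it occurred in 3.63% of all windows. Counting a gene once if any of its windows held the site, 2 of 18 WNT genes with a window did, Axin2 and Nkd1. It also occurred in 1 of 10 thalamic genes (Slc17a6), and in 0 of 13 ependymal, 0 of 15 choroid plexus and 0 of 16 striatal genes.
Axin2 (GRCr8 chr10:94398535-94398834, plus strand): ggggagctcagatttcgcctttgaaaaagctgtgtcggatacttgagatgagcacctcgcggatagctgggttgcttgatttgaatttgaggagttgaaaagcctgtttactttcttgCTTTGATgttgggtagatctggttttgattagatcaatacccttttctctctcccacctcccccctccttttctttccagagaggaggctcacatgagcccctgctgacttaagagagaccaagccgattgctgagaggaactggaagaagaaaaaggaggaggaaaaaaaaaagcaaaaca

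Retinoic acid pathway genes were mixed, with 3 higher, 6 lower and 7 not passing of 16 tested, against 41.6% called over all genes. With counts summed per litter 0 were higher and 4 lower, where 8.83% of all genes were higher and 6.34% lower. The largest falls were in receptors of the striatal list, Rxrg and Rarb. The synthesising enzymes differed little: Aldh1a1 had medians of 3.84 and 4.20 CPM, Aldh1a2 of 13.0 and 14.5 CPM and Aldh1a3 of 2.80 and 3.15 CPM.

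Cell cycle genes were lower. All 22 were tested, with 0 higher, 15 lower and 7 not passing and a median of -0.36. Mki67, the proliferation antigen, was at 37.9 to 47.3 CPM in batch 1 (median 40.8) and 21.04 to 35.4 CPM in batch 2 (median 27.5), without overlap (est. = -0.62, SE = 0.08, edgeR adjusted p = 6.8e-07). Top2a, a topoisomerase of dividing cells, had medians of 55.0 and 35.1 CPM (est. = -0.60, SE = 0.09, edgeR adjusted p = 2.5e-05), whereas Cdk1 had medians of 13.7 and 12.1 CPM (edgeR adjusted p = 0.8). With counts summed per litter 10 of the 22 were called lower, where 6.34% of all genes were. Radial glia and astrocyte genes went both ways, with 6 higher, 2 lower and 6 not passing of 14, against 21.4% higher and 20.2% lower over all genes, and 4 higher and 1 lower with counts summed per litter. Hopx, of outer radial glia and later astrocytes, had medians of 4.29 and 8.95 CPM (est. = 1.00, SE = 0.15, edgeR adjusted p = 8.66e-06), Fabp7 was higher by 0.29 (SE = 0.07), Slc1a3 was lower (est. = -0.34, SE = 0.10) and Aqp4 did not pass. Immediate early genes, which follow neuronal activity and handling, gave 2 higher and 6 lower of 12, with Junb (est. = -0.48, SE = 0.10, edgeR adjusted p = 0.00048) and Npas4 (est. = -0.89, SE = 0.24, edgeR adjusted p = 0.0047) lower and Fos not passing (medians 5.86 and 4.90 CPM). With counts summed per litter, 3 of the immediate early genes were called lower and 0 higher, where 6.34% of all genes were lower. Over animals, 20.2% of all genes were lower and 21.4% higher. Synaptic maturation genes gave 3 higher and 6 lower of 17, against 41.6% called over all genes, and neither Camk2a nor Snap25 passed. With counts summed per litter, 2 synaptic genes were higher and 2 lower. At that level 8.83% of all genes were higher and 6.34% lower, shares that also apply to the radial glia list.

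Among cells that surround or pervade all regions, few genes of the meningeal, microglial, oligodendrocyte precursor, vascular and red cell lists were called. Other such lists had more calls: radial glia and astrocytes (6 higher and 2 lower of 14) and myelinating oligodendrocytes (1 higher and 3 lower of 7). Meninges and fibroblasts gave 0 called of 18 (median 0.24), although single slices spread widely: Col1a1 ranged from 19.7 to 209 CPM in batch 1 and from 39.5 to 242 CPM in batch 2. Microglia gave 1 lower of 16, oligodendrocyte precursors 1 lower of 6, pericytes and smooth muscle 1 lower of 11, and endothelium 1 higher and 2 lower of 13. Red cell genes gave 2 higher of 8, with Hba-a1 at medians of 421 and 490 CPM and Hbb at 62.0 and 112 CPM (est. = 1.00, SE = 0.23, edgeR adjusted p = 0.00198); globin genes are near-copies, so reads between them are uncertain. The background share of 41.6% called in either direction applies to each of these counts.

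By p value, the leading 10 of the genes raised 2-fold or more were Cbln1, Etnk2, Tcf7l2, Nr2f2, Lhx9, Spint2, Cachd1, Ntng1, Rgs3 and Hsd11b2. None of these overlapped between batches, but picking by p in the same contrast favours such genes. Over all genes tested, 0.811% did not overlap with batch 2 higher and 0.786% with batch 2 lower. Cbln1, a secreted synaptic organiser, was at 18.9 to 37.1 CPM (median 22.1) and 62.1 to 93.3 CPM (median 83.3; est. = 1.75, SE = 0.09, edgeR adjusted p = 5.31e-13). Nr2f2, the nuclear receptor COUP-TFII, went from a median of 26.02 to 141 CPM (est. = 2.34, SE = 0.14, edgeR adjusted p = 1.56e-11), and Hsd11b2, which inactivates glucocorticoids, from 0.731 to 8.85 CPM (est. = 3.30, SE = 0.25, edgeR adjusted p = 2.96e-10). Medians for the rest were 5.71 and 16.03 CPM for Etnk2, 41.3 and 85.9 CPM for Spint2, 30.6 and 85.2 CPM for Cachd1, and 35.1 and 90.0 CPM for Rgs3. On the lower side stood Syt6, Hs3st2, Bhlhe40, Klhl29, Meis2, Bcl6, Sertad4, Mpped2, Sypl2 and Foxp1. Syt6, a synaptotagmin, was at 21.3 to 34.8 CPM (median 31.6) and 9.44 to 13.7 CPM (median 10.6; est. = -1.50, SE = 0.08, edgeR adjusted p = 4.47e-13). Bhlhe40, a basic helix-loop-helix repressor, had medians of 30.004 and 8.89 CPM, the zinc finger repressor Bcl6 of 34.6 and 11.9 CPM, and Hs3st2, a heparan sulfate sulfotransferase, of 64.7 and 28.6 CPM. Sypl2 gave the largest fall of a gene without overlap, from 3.07 to 13.3 CPM (median 5.97) to 0.141 to 1.05 CPM (median 0.276; est. = -3.99, SE = 0.32, edgeR adjusted p = 7.02e-10). Pou3f4, a POU factor of striatal progenitors (medians 14.3 and 4.65 CPM), and Actn2, a spine alpha-actinin (medians 23.4 and 12.0 CPM), were also lower without overlap. Both were picked by size of change from genes whose ranges did not overlap.

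Slices of a batch were not alike, and more genes were called among litters in batch 2. The tests of the 2 batches differ in number, size and sex of litters, and the spread between litters was not compared directly. Within batch 1, 416 of 11941 genes differed among the 3 litters (3.48%, edgeR F test with sex as covariate), and within batch 2, 3498 of 12190 differed among the 4 litters (28.7%). Choroid plexus sums had a litter median of 2870 CPM in 9_5, 853 CPM in 9_10, 613 CPM in 9_15 and 739 CPM in 9_25. Thalamic sums ran the other way, at 744 CPM in 9_5 against 1175, 1047 and 1116 CPM in the others. The smallest p values in batch 2 belonged to Rpl17, Col2a1 and Disp2. Disp2 had litter medians of 290 CPM in 9_5, 487 CPM in 9_10, 381 CPM in 9_15 and 448 CPM in 9_25, while the batch 1 slices ranged from 242 to 380 CPM (median 282). Col2a1, a cartilage collagen also found in neural tissue, had litter medians of 17.1, 52.1, 44.8 and 41.7 CPM in the same order, so both pups of 9_5 lay within the batch 1 range of 9.03 to 34.3 CPM. Slc12a5, the potassium-chloride transporter that turns GABA inhibitory and was named after its values were seen, was at 235 and 313 CPM in 9_5, 351 and 364 CPM in 9_15 and 412 to 451 CPM in the other 8 slices of batch 2. Over the 3498 genes, litter 9_5 had the highest or lowest of the 4 litter medians in 87.0%, 9_10 in 56.5% and 9_25 in 36.5%. For each gene 2 of the 4 litters fill these places, so sizeable shares arise even where no litter stands out. The share was smallest for 9_15, which had the highest median in 325 genes and the lowest in 376. Litters of 2 pups give noisier medians than litters of 4, and both 9_5 and 9_15 held 2 pups. The 3498 genes were those called by the litter test itself, and the difference between these shares was not tested. Sex and litter are partly tied in batch 2, where 2 litters held a single sex. In batch 1, litter IgG2 stood out in the 3 leading genes: Fam111a was at 66.4 to 106 CPM in its 4 pups and at 4.99 to 10.9 CPM in the other 8, Dnajc25 at 27.97 to 34.2 CPM against 8.60 to 13.5 CPM, and Arfgap2 at 66.8 to 72.2 CPM against 90.7 to 104 CPM. These 3 genes were picked by the smallest p of this same litter test, so the gaps between their ranges follow from that choice.

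**Figure D4:**
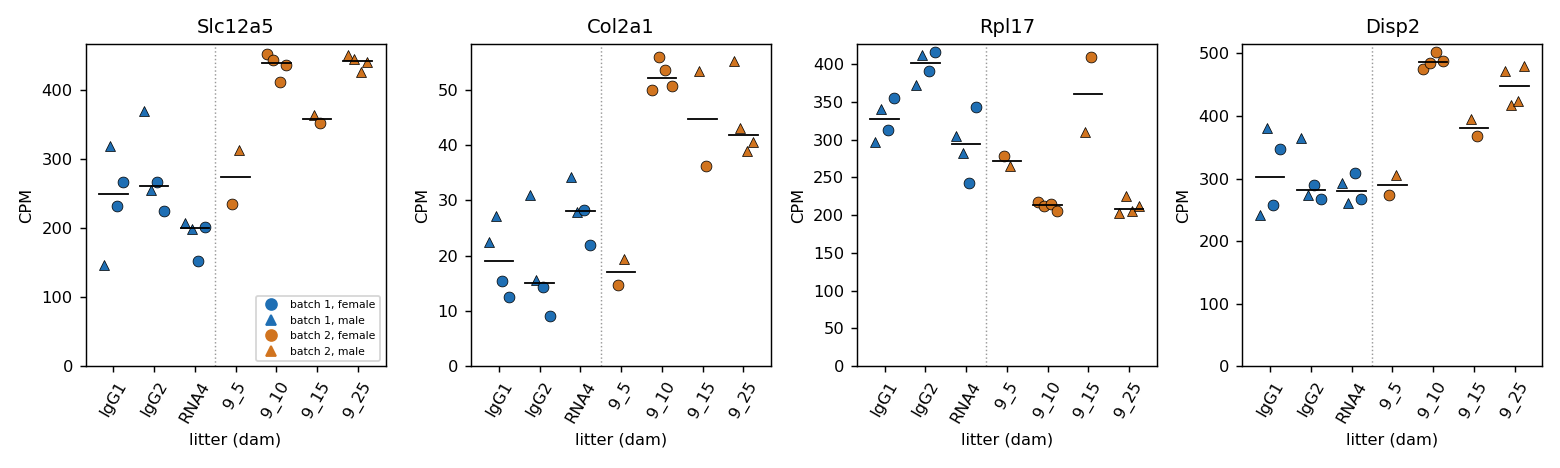
CPM of Slc12a5, Col2a1, Rpl17 and Disp2 in each control by litter (circles females, triangles males, bars litter medians, axes from 0). The 2 pups of litter 9_5 lie below the rest of batch 2 for Slc12a5, Col2a1 and Disp2, and among batch 1 values.

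The library IgG1_2, a batch 1 male, stood apart from the other 23. It held 35 genes above 1 CPM that no other control had above 1 CPM, compared with 0 to 18 such genes in each of the others, and 7 of the 35 were Hox genes. Hox genes pattern hindbrain and spinal cord and are not expressed in forebrain. The 15 Hox genes in the table, of 19 listed, summed to 88.5 CPM in IgG1_2, with Hoxb5 at 21.4 CPM and Hoxa2, Hoxa3 and Hoxa4 at 4.76, 5.30 and 6.92 CPM, and to at most 8.23 CPM in batch 2, in MAR_C3_43. Mobp, a myelin gene, was at 4.33 CPM there and at no more than 0.352 CPM elsewhere. Without IgG1_2 the batch contrast gave 5015 calls, with 19 of 21 choroid plexus and 11 of 13 thalamic genes higher and 17 of 22 striatal genes lower. Without this animal and the 3 of litter 9_25 that also held Hox reads it gave 4030, with 13 of 16 choroid plexus genes, 11 of 13 thalamic genes and 16 of 22 striatal genes in the same directions.

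The batch contrast was repeated in animals that share no library with the controls, the 25 pups of dams immunised against LDHA/B+CRMP1+STIP1 (16 in batch 1 and 9 in batch 2). Of 12033 genes tested there 4966 were called (41.3%), 2531 higher (21%) and 2435 lower (20.2%) in batch 2. These pups came from 4 litters in batch 1 and 5 in batch 2. With litter as a random effect, 3393 genes were called, 1698 higher and 1695 lower. The counts for exposed pups that follow treat pups as the replicates, except where litter is named. Of the 5033 genes called in controls, 4966 were tested in both. Of these 4966, 97.9% had the same sign and 3646 were called in both (73.4%), while over all 11968 genes tested in both, called or not, 84.1% had the same sign. Of the genes 2-fold or more higher in controls, 309 were tested in both and 304 were also called, and of those 2-fold or more lower, 78 of 82. Tcf7l2 had log2 fold changes of 5.22 in controls and 4.50 in exposed pups, Ttr of 5.65 and 4.06, and Drd1 of -1.89 and -1.65. Choroid plexus gave 21 higher of 21 tested, thalamus 11 higher of 12, striatum 18 lower of 22 and cell cycle 17 lower of 22. Meninges gave 8 higher of 18 and red cell genes 8 higher of 8, where the controls gave 0 and 2, and that difference was not tested for the lists. In the test of the difference between the 2 contrasts, 0 of 12323 genes were called by edgeR, with 356 at an unadjusted p under 0.05, 2 called by DESeq2 and 0 by limma with litter as a random effect. The smallest p was for Slc6a5, the glycine transporter of hindbrain and spinal inhibitory neurons (est. = -4.52, edgeR adjusted p = 0.132), which reached 12.2 CPM in IgG1_2 among controls and 52.2 CPM in an exposed batch 2 pup. Zfp180 and Trappc6a followed, both at an edgeR adjusted p of 1.0. A p that misses the threshold does not show that the contrasts were equal.

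**Figure D5:**
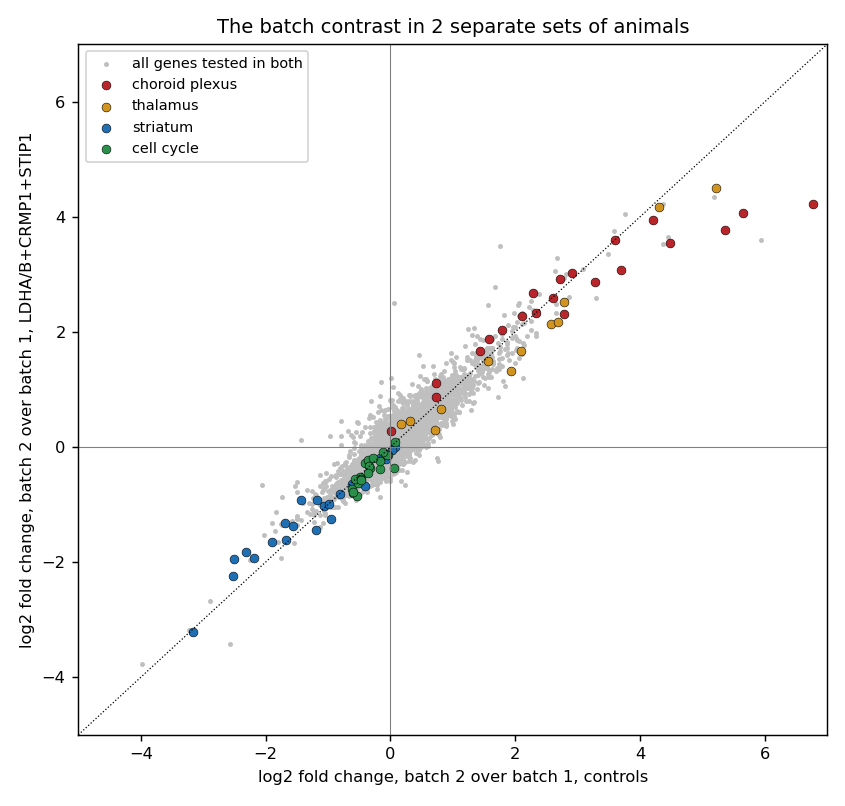
Log2 fold change of batch 2 over batch 1 in controls (x axis) against the same contrast in LDHA/B+CRMP1+STIP1 pups (y axis) for 11968 genes tested in both, with 4 lists coloured and the line of equality dotted. Choroid plexus and thalamus genes lie at the upper right and striatum genes at the lower left in both sets of animals.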

How the data were processed

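Per the labels and the study's methods, poly(A) RNA from 1 coronal slice per pup was sequenced in 2 batches, aligned to rn7 with STAR 2.5.4b and counted per gene with featureCounts by the authors. The deposited table holds raw counts for 17494 genes with each gene's exon length in bases, a column the authors supplied and that entered no test. Of the counts from 1 to 9, 74.0% were even, so many counts may hold each fragment more than once, and halving the counts was tried. Samples were grouped by label and title. Genes with at least 1 CPM in 8 samples (4 within a batch) were tested with edgeR 4.0.16 (R 4.3.3), using TMM factors, quasi-likelihood tests, sex as covariate and Benjamini-Hochberg adjustment at 0.1. Litter was treated by summing counts per litter and, with limma 3.58.1, as a random effect (correlation 0.299). Other alternatives were DESeq2 1.42.0, other scalings and filters, single sexes, and leaving out litters or animals. The edgeR steps were tested on simulated data. Replicates are separate pups. Totals of 25389628 to 34323510 make 1 CPM 25.4 to 34.3 counts, and p-values cover the spread between these pups only. Genes named were the 3 markers, the first 3 measured members and the largest called change of each list described, the 10 smallest p and 10 largest non-overlapping changes in each direction, and 3 genes per litter or interaction test. Members named as exceptions to their list, the second examples of the promoter section, Axin2, Nkd1, Lef1, Rspo2, Rspo3, Rarb, Slc6a4, Tph2, Slc12a5, Reln, Hoxb5 and Mobp were chosen after their values were seen. The members and gene lists were chosen with earlier results of these data known. Some genes that this rule names are not reported here.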

Additional observations from a re-analysis of the deposited data

Results flagged for a closer look

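In 39 gene lists, the sum of CPM was searched for a library far from the rest of its group, in groups of 4 to 10 samples, which here meant only the 9 exposed pups of batch 2. Chance flags about 1 in 20 groups. Hox genes of hindbrain and spinal cord summed to 163.4 CPM in 1 of these pups, with 48.98 and 24.55 CPM in 2 others and no more than 2.03 CPM in the rest. Among the controls, the same sum was 88.5 CPM in IgG1_2. The intermediate progenitor list, of which Neurog1 alone was in the table, was at 0.0678 CPM in 1 of the 9 pups and at 0 in the other 8, a level of a few counts.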

How the results depend on the processing

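No paired analysis was possible because the batches share no replicate numbers, dams or animals, so no replicate block could be fitted. The count of genes called (5033, with 2589 higher and 2444 lower) became 1833 (1067 and 766) with counts summed per litter, 2669 (1456 and 1213) with litter as a random effect, 2957 (1481 and 1476) in males and 2998 (1486 and 1512) in females, which hold fewer samples. Leaving out 1 litter gave 3760 to 5056 calls, the lowest without 9_25. The 351 genes higher by at least 2-fold became 789 without a filter and 113 with at least 5 CPM in 12 samples, and the 84 lower became 160 and 52, which test other genes. The 0 calls for the difference of the 2 contrasts became 2 with DESeq2 and 16 without a filter. Among litters of batch 2, 3498 calls became 5194 without a sex term. The log2 fold changes of Ttr ranged from 5.02 to 6.75, of Tcf7l2 from 4.96 to 5.44 and of Drd1 from -2.32 to -1.48 over 25 settings, with a largest edgeR, DESeq2 or limma adjusted p of 0.0202. Of 97 called named genes, 69 kept their direction and call in every alternative, 28 lost the call in at least 1 (21 with counts summed per litter) and 0 reversed. List sums, which abundant members dominate, moved by more than 1 SD between pups in these lists where the median over members of log2 CPM was taken instead (log2 batch difference, sum then median): ependyma 0.79 and 1.58, thalamus 2.54 and 1.92, habenula 0.36 and 1.63, hypothalamus 1.21 and 2.24, striatum -1.31 and -1.67, pallidum 1.01 and -0.76, hippocampus 0.67 and 0.34, cortical hem 0.05 and 1.81, deep layers -0.42 and 0.017, pallial neurons -0.09 and -0.28, bone and cartilage 0.83 and -0.19, skeletal muscle -0.46 and -0.21, hypoxia -0.10 and 0.12, heat shock -0.07 and 0.078, synaptic maturation 0.02 and -0.21, retinoic acid -0.79 and -0.34, and WNT 0.99 and 0.47. Midbrain (2.40 and 1.70) and pituitary (0.77 and 1.33) moved within 1 SD. Depth limits genes near 1 CPM, and 7 litters limit what the batches' difference can be generalised to.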

Other observations

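The list for pallidum, septum and basal forebrain cholinergic neurons gave 3 genes higher, 1 lower and 5 not passing of 9 tested, near the 41.6% called over all genes. With counts summed per litter, 1 was higher and 0 were lower. Lhx8, Gbx1 and Chat, which encodes the enzyme of acetylcholine synthesis, did not pass. Interferon response genes gave 3 higher of 6 tested, hypoxia genes 1 higher and 2 lower of 12, heat shock genes 2 higher and 1 lower of 6, and fetal growth regulators 2 lower of 6, against 41.6% called over all genes. With counts summed per litter, the interferon list had 1 call (higher) and the hypoxia, heat shock and fetal growth lists had 0, where 15.2% of all genes were called. Myelinating oligodendrocyte genes gave 1 higher and 3 lower of 7, and 0 higher and 2 lower with counts summed per litter. Of the pineal and pituitary lists 1 gene each was tested, and both were higher, the pituitary one also with counts summed per litter. Bone and cartilage and skeletal muscle each gave 1 higher and 1 lower, of 3 and of 4 tested, and each 0 higher and 1 lower with counts summed per litter. The shares of 41.6% over animals and 15.2% with counts summed per litter apply to every list of this paragraph.

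Genes for ribosomal proteins, a list added after their values were seen, gave 2 higher and 24 lower of 73 tested between batches, against 41.6% called over all genes. With counts summed per litter 0 were higher and 6 lower, where 8.83% of all genes were higher and 6.34% lower. Among litters, 66 of 73 differed in batch 2, against 28.7% of all genes, and 1 of 73 in batch 1, against 3.48%. Rpl17, whose p was among the smallest in the batch 2 litter test, had litter medians of 272 CPM in 9_5, 213 CPM in 9_10, 360 CPM in 9_15 and 209 CPM in 9_25. Many of these genes have near-identical processed copies, so their counts are uncertain.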
